A study of Homo sapiens with 12 samples.

Results

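The 10 genes described here encode enzymes of fatty acid oxidation. They were chosen by gene ID from a fixed list, as ECI1 and 9 further genes of the same pathway, with earlier results of these data known. In particular, the m7G signal of ECI1 in the shMETTL1 against shscramble comparison of AlkAniline-Seq was known, so this comparison is given below as a description without a test. The 10 genes made up 10 of the 18569 gene IDs in the deposited data and 1238 of the 842183 positions. All 10 passed the filter on low counts in each of the main fits, though not under every alternative setting.

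The cells were LNCaP-AI, a derivative of the LNCaP prostate cancer line kept under androgen deprivation, and androgen deprivation therapy was the labelled treatment of every group. The groups were shMETTL1 AlkAniline-Seq, shscramble AlkAniline-Seq, shMETTL1 input and shscramble input, with 3 replicates in each and 12 libraries in all. shMETTL1 cells carried a stably integrated lentiviral hairpin against METTL1, the catalytic subunit of the METTL1 and WDR4 complex that places m7G on RNA, and shscramble cells carried a scrambled hairpin. Whether either line came from a single clone is not given in the sources used here, and the levels of METTL1 and of prostate markers could not be looked up by gene ID. The hairpin listed for the knockdown is shown because it defines the knockdown. Capitals mark its 2 complementary arms of 21 bases, and the 4 lower-case bases form the loop.

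shMETTL1: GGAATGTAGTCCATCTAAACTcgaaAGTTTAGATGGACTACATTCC

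Fatty acid oxidation takes place mainly in mitochondria. Long-chain acyl groups enter through the carnitine shuttle and are then shortened in repeated rounds of dehydrogenation, hydration, a second dehydrogenation and thiolytic cleavage. Unsaturated and branched chains need accessory isomerases, reductases and a racemase before they can pass through the cycle. Prostate cancer cells are known to use fatty acids as a fuel, and AMACR is a widely used histological marker of prostate cancer. In AlkAniline-Seq, RNA is cleaved by alkali and aniline at m7G, so that reads that start at a position report cleavage there. The input gives the reads found without this selection.

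The libraries held 1421551 to 3258499 reads, of which the 10 genes took 3149 to 6700 reads, or 0.136% to 0.222%. Of their 1238 positions, 149 to 337 had a read in each AlkAniline-Seq library, and 123 to 546 in each input library. Some libraries stood apart. In shscramble input replicate 2 a read was present at only 72098 positions of the series, and its scaling factor was 0.665. In shMETTL1 input replicate 1 a read was present at 311979 positions, and its scaling factor was 1.19. The remaining input libraries had a read at 153839 to 165105 positions. In shscramble AlkAniline-Seq replicate 1 a read was present at every member position that reached 50 reads in another shscramble library, 42 of 42 for replicate 2 and 26 of 26 for replicate 3. For every other ordered pair of AlkAniline-Seq libraries this share was 31.2% to 66.7%. Some of the values that rest on either of these shscramble libraries are also given without it. The study describes its replicates as biological, whereas the labels do not say whether they came from separate cultures, and p-values measure the spread between these samples.

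The values below are read counts per 1000000 reads of the library (CPM) after TMM scaling of the 6 libraries of each assay, so they can be set against each other within an assay and within a gene. Gene lengths were not used, and levels were not compared between genes. These values are relative to the library, so neither the number of cells nor the RNA per cell can be read from them. The plot of CPM by library shows each gene with the spread of its replicates.

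**Figure D1:**
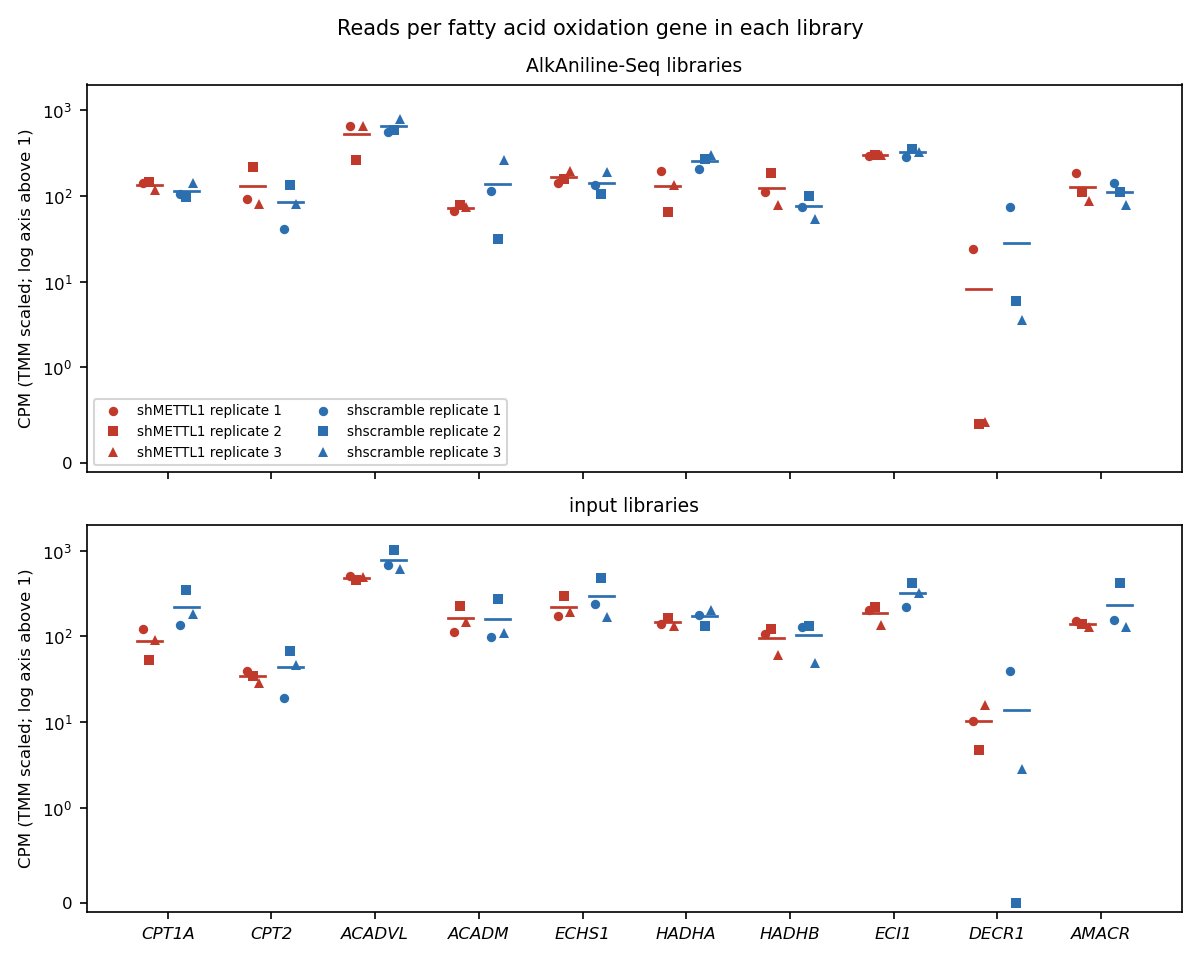
CPM (TMM scaled, logarithmic axis above 1 and linear below) of each of the 10 genes in the AlkAniline-Seq libraries (top) and the input libraries (bottom), with shMETTL1 in red left of shscramble in blue. Symbols are replicates and horizontal lines are means of 3; DECR1 spans 0.406 to 74.8 CPM in AlkAniline-Seq, while ECI1 stays between 289 and 354 CPM.

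In the input, reads of 9 of the 10 genes were lower in shMETTL1 than in shscramble cells by point estimate (6 of 10 when scaled by library size alone). Of all 11740 gene IDs tested, 6044 (51.5%) were lower by point estimate after TMM scaling. None of the 10 genes passed the test. With edgeR's quasi-likelihood test and Benjamini-Hochberg adjustment, 0 of the 11740 gene IDs tested (0%) had an adjusted p under 0.05. The spread between replicates was wide, with a common biological coefficient of variation of 0.81 in edgeR. The absence of calls therefore does not show an absence of change. DESeq2 called 35 of the 11740 gene IDs, none of which was among the 10. The median log2 fold change of the 10 genes was −0.43, against −0.038 over all gene IDs tested. Without shscramble input replicate 2 the median of the 10 was −0.22, and 4 of the 10 lay above 0. With library size alone it was −0.15, against 0.22 over all gene IDs. At an unadjusted p under 0.05 there were 735 gene IDs (6.26%), of which 542 (4.62%) were lower in shMETTL1 cells. CPT1A and ACADVL were among these 542.

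The carnitine shuttle was represented by both of its acyltransferases. CPT1A (ENSG00000110090) on the outer mitochondrial membrane forms acylcarnitine and controls the rate of long-chain entry. In the input it had 123, 52.5 and 89.6 CPM in shMETTL1 cells, against 137, 348 and 184 CPM in shscramble cells. After TMM scaling the groups did not overlap, and shscramble replicate 2 was the highest. Such a separation, with every shMETTL1 library below every shscramble library, occurred for 4.29% of the gene IDs with a read in the input, and among the 10 genes for CPT1A and ACADVL. As a percent of library reads, without TMM scaling, it occurred for 2.48% of gene IDs, and among the 10 genes for ACADVL alone. The fitted log2 fold change of CPT1A was −1.33 (SE 0.52, edgeR unadjusted p = 0.020, adjusted p = 0.77). With library size alone it was −0.91 (SE 0.45), and without shscramble input replicate 2 it was −0.86 (SE 0.39). In this replicate a single position held 60.2% of the gene's reads, and the shares in the other input libraries were 7.19% to 17.3%.

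In AlkAniline-Seq the CPT1A reads lay closer together. They amounted to 140, 147 and 117 CPM in shMETTL1 cells, against 104, 97.9 and 142 CPM in shscramble cells. The ranges overlapped, and the fitted log2 difference was 0.23 (SE 0.52). The leading positions differed between the libraries. In shMETTL1 replicate 2 the positions ranked 1 and 2 by summed reads held 133 and 136 reads, while both had 0 reads in the other shMETTL1 libraries. The position ranked 3 had no read in any shMETTL1 library, against 19, 0 and 117 reads in shscramble libraries.

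CPT2 (ENSG00000157184) on the inner membrane releases the acyl group from carnitine. It had 39.7, 34.3 and 28.8 CPM in shMETTL1 input, against 19.0, 67.8 and 46.1 CPM in shscramble input, and the ranges overlapped. In AlkAniline-Seq it had 92.1, 217 and 80.3 CPM in shMETTL1 cells, against 40.7, 134 and 81.6 CPM in shscramble cells. Replicate 2 was the highest of its group in both conditions. In shMETTL1 replicate 2 the positions ranked 1, 2 and 3 held 275, 130 and 107 reads, against at most 1 read in any of the other AlkAniline-Seq libraries, so that a single library carried the leading positions of the gene.

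The first dehydrogenation was represented by enzymes for very long and medium chains. ACADVL (ENSG00000072778), the very long-chain acyl-CoA dehydrogenase, had the most reads of the 10 genes in every library except shMETTL1 AlkAniline-Seq replicate 2, where ECI1 had more. It had 507, 453 and 489 CPM in shMETTL1 input, against 684, 1021 and 618 CPM in shscramble input. Every shMETTL1 library lay below every shscramble library. The log2 fold change was −0.68 (SE 0.32, edgeR unadjusted p = 0.050, adjusted p = 0.77), and −0.43 (SE 0.24) without shscramble input replicate 2 or −0.32 (SE 0.24) with library size alone. In AlkAniline-Seq the gene had 663, 262 and 662 CPM in shMETTL1 cells, against 555, 593 and 796 CPM in shscramble cells, and shMETTL1 replicate 2 was the only low library.

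ACADM (ENSG00000117054), the medium-chain acyl-CoA dehydrogenase, had 112, 226 and 146 CPM in shMETTL1 input, against 96.9, 270 and 108 CPM in shscramble input. These ranges overlapped almost wholly, and its log2 fold change of 0.032 (SE 0.51) was the only one of the 10 above 0 in the input. In AlkAniline-Seq it had 66.7, 78.4 and 73.5 CPM in shMETTL1 cells, against 114, 31.5 and 263 CPM in shscramble cells. The shMETTL1 libraries lay close together inside the wide shscramble range. ACADM reads in shscramble input replicate 2 came to 91.6% from a single position.

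ECHS1 carries out the hydration of short chains, while the trifunctional protein carries out hydration, the second dehydrogenation and cleavage of long chains. ECHS1 (ENSG00000127884), the short-chain enoyl-CoA hydratase, had 171, 296 and 194 CPM in shMETTL1 input, against 239, 483 and 168 CPM in shscramble input. In AlkAniline-Seq it had 140, 159 and 194 CPM in shMETTL1 cells, against 134, 104 and 192 CPM in shscramble cells. Both pairs of ranges overlapped. Its leading positions were read in all 6 AlkAniline-Seq libraries. The position ranked 1 had 71, 86 and 59 reads in shMETTL1 libraries, against 28, 80 and 22 in shscramble libraries. The position ranked 2 had 60, 122 and 62 reads in shMETTL1 libraries, against 13, 53 and 25 in shscramble libraries. Both were also read in all 6 input libraries, with 28 to 212 reads at the position ranked 1 and 13 to 251 at the position ranked 2.

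HADHA (ENSG00000084754) is the alpha subunit of the mitochondrial trifunctional protein, with the hydratase and the hydroxyacyl-CoA dehydrogenase. In AlkAniline-Seq it had 197, 65.4 and 133 CPM in shMETTL1 cells, against 206, 268 and 301 CPM in shscramble cells. Every shMETTL1 library lay below every shscramble library, as for 6.87% of gene IDs with a read, and no other of the 10 genes separated by CPM in either direction in this assay. The fitted log2 difference was −0.97 (SE 0.47), and −0.63 (SE 0.45) without shMETTL1 replicate 2, the lowest library. The gap was narrow between replicate 1 of shMETTL1 cells and replicate 1 of shscramble cells. In the input it had 141, 165 and 130 CPM in shMETTL1 cells, against 178, 134 and 203 CPM in shscramble cells, with overlapping ranges and a log2 fold change of −0.24 (SE 0.45).

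HADHB (ENSG00000138029) is the beta subunit of the same protein and carries the thiolase. It had 110, 188 and 78.6 CPM in shMETTL1 AlkAniline-Seq libraries, against 75.3, 98.6 and 53.2 CPM in shscramble libraries, with a fitted log2 difference of 0.73 (SE 0.62). Without shMETTL1 replicate 2 it was 0.33 (SE 0.70). Few positions carried many of these reads in shMETTL1 cells, where the position ranked 2 had 0, 225 and 0 reads and the position ranked 1 had 149, 1 and 78. In the input HADHB had 106, 122 and 60.5 CPM in shMETTL1 cells, against 128, 133 and 49.2 CPM in shscramble cells. The ranges overlapped, and replicate 3 was the lowest in both conditions. A single position held 93.0% of the HADHB reads of shscramble input replicate 2.

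ECI1 and DECR1 handle the double bonds of unsaturated chains. ECI1 (ENSG00000167969), the enoyl-CoA isomerase, had 296, 304 and 299.8 CPM in shMETTL1 AlkAniline-Seq libraries, against 289, 354 and 324 CPM in shscramble libraries. Its mean over the gene was 300.2 ± 4.17 CPM in shMETTL1 cells and 322 ± 32.7 CPM in shscramble cells (SD, n = 3 each). The ranges overlapped after TMM scaling, and the fitted log2 difference was −0.10 (SE 0.33). As a percent of library reads, without TMM scaling, every shMETTL1 library lay below every shscramble library for ECI1 and HADHA, as it did for 7.69% of gene IDs with a read. In the input ECI1 had 201, 220 and 134 CPM in shMETTL1 cells, against 218, 416 and 323 CPM in shscramble cells. The log2 fold change in the input was −0.78 (SE 0.41, edgeR adjusted p = 0.78), −0.55 (SE 0.32) without shscramble input replicate 2 and −0.43 (SE 0.34) with library size alone. The ranges overlapped only through shMETTL1 replicate 2 and shscramble replicate 1.

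Over the 12 libraries, the log2 CPM of ENSG00000162433 and ENSG00000183648 were most like those of ECI1, with Pearson's r of 0.93 and 0.92 among 12876 other gene IDs. These libraries share cultures and the scaling, and the values are a description.

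DECR1 (ENSG00000104325), the 2,4-dienoyl-CoA reductase, was sparsely read. It had 61, 1 and 1 reads in shMETTL1 AlkAniline-Seq libraries, against 136, 16 and 5 reads in shscramble libraries. In the input it had 40, 16 and 48 reads in shMETTL1 cells, against 123, 0 and 9 reads in shscramble cells. Replicate 1 of both conditions held most AlkAniline-Seq reads, at 1 position with 61 reads in shMETTL1 cells and 85 reads in shscramble cells. With so few reads, a difference in DECR1 was not detectable at this depth, and its log2 fold change in the input of −0.44 had an SE of 1.47. That value was −1.01 without shscramble input replicate 2 and 2.77 without shscramble input replicate 1.

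AMACR (ENSG00000242110), the racemase that prepares branched chains for peroxisomal and mitochondrial oxidation, was read in all 12 libraries. It had 149, 137 and 129 CPM in shMETTL1 input, against 156, 420 and 128 CPM in shscramble input. A single shscramble library lay above all others, and without it the log2 fold change was −0.038 (SE 0.33), against −0.76 (SE 0.50) with it. With library size alone it was −0.30 (SE 0.40). That library had 476 of its 855 AMACR reads at 1 position. In AlkAniline-Seq the gene had 185, 110 and 87.1 CPM in shMETTL1 cells, against 140, 111 and 78.1 CPM in shscramble cells, and the ranges overlapped.

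The concentration of reads at single positions was measured for each gene and library, as the plot of the highest position shows. In shscramble input replicate 2 the highest position held a larger share of the reads than in any other input library for 8 of the 10 genes, the exceptions being ECHS1 and DECR1. These shares ran from 33.9% for ACADVL to 94.9% for CPT2. Its part in the input differences above was measured only by leaving the library out.

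**Figure D2:**
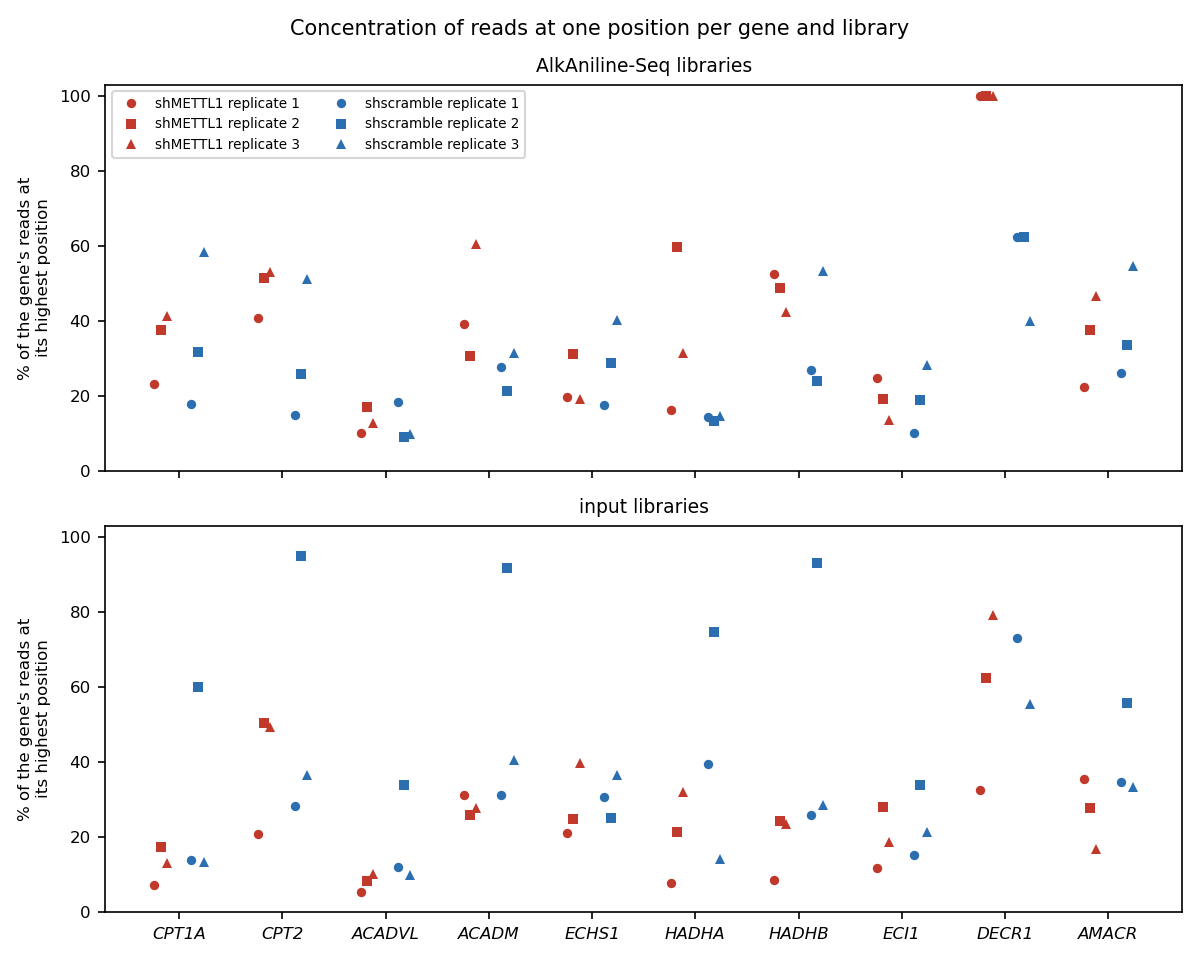
Percent of a gene's reads that lay at its most read position, per library, in AlkAniline-Seq (top) and input (bottom), with shMETTL1 in red left of shscramble in blue and 1 symbol per replicate. In the input, shscramble replicate 2 reaches 94.9% for CPT2, 93.0% for HADHB and 91.6% for ACADM; DECR1 had no read there and has no point.

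The reads of AlkAniline-Seq were next set against the input, which asks whether a gene gave more or fewer reads after cleavage at m7G than before. The fits compared groups, whereas values by culture join same-numbered libraries by label alone. Deviations of those libraries from their group means correlated at only −0.0048 to 0.033. In shMETTL1 cells, 27 of the 12877 gene IDs tested (0.21%) differed at an adjusted p under 0.05, and in shscramble cells 82 (0.637%) did. None of the 10 genes was among them, which does not show an absence of change. In shMETTL1 cells 5 of the 10 genes lay above 0 and 5 below (4 and 6 when scaled by library size alone), with a median log2 fold change of −0.084, against 0.17 over all gene IDs. With library size alone this median was −0.20, against 0.040 over all gene IDs. In shscramble cells 3 lay above 0 and 7 below (5 and 5 when scaled by library size alone), with a median of −0.48, against −0.075 over all gene IDs. Scaled by library size alone, the median was 0.030, against 0.30 over all gene IDs. Without shscramble input replicate 2 the median of the 10 in shscramble cells was −0.080, against 0.011 over all gene IDs, with 5 genes on each side. Without shscramble AlkAniline-Seq replicate 1 it was −0.44.

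**Figure D3:**
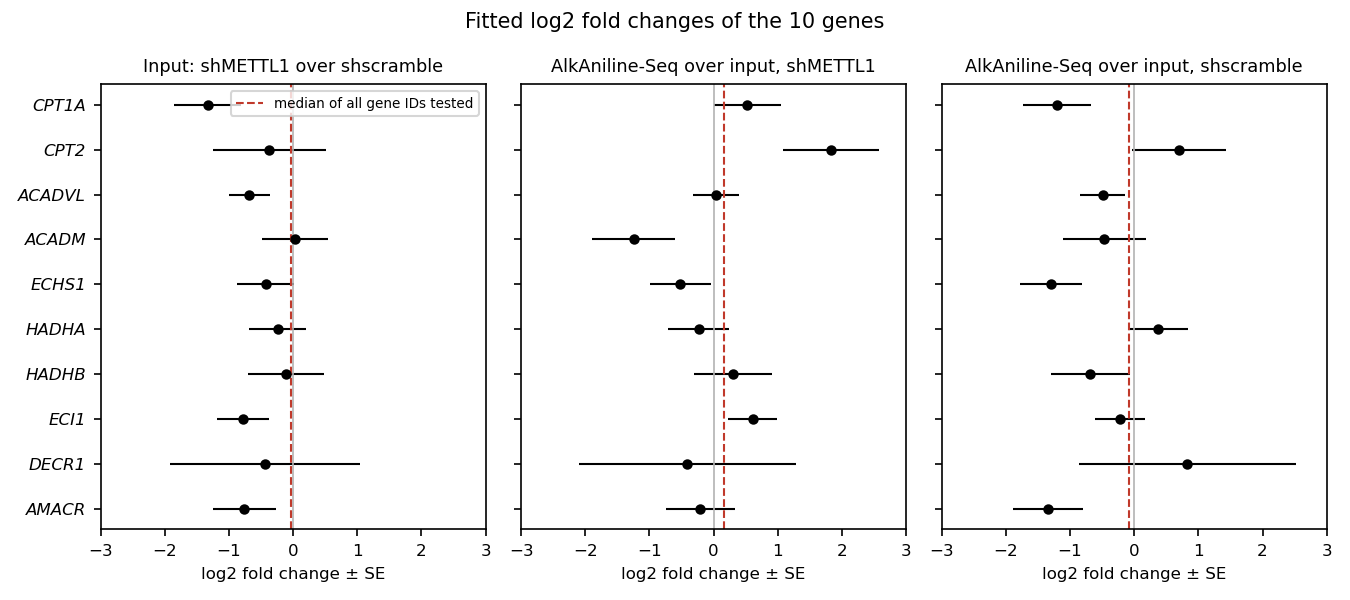
Fitted log2 fold changes with standard errors (edgeR) of the 10 genes for input reads in shMETTL1 over shscramble cells (left), AlkAniline-Seq over input in shMETTL1 cells (middle) and the same in shscramble cells (right). The dashed red line is the median of all gene IDs tested, at −0.038, 0.17 and −0.075; none of the 30 values passed an adjusted p of 0.05.

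CPT2 stood highest of the 10 genes in shMETTL1 cells and was above 0 in each culture, a pattern not counted over all gene IDs. Its log2 AlkAniline-Seq over input was 1.15, 2.52 and 1.35 in shMETTL1 cultures, against 0.89, 0.67 and 0.63 in shscramble cultures. The fitted value was 1.83 in shMETTL1 cells (SE 0.75, edgeR unadjusted p = 0.023, adjusted p = 0.51) and 0.70 in shscramble cells (SE 0.73, adjusted p = 0.71). Without shMETTL1 AlkAniline-Seq replicate 2, which carried the leading positions of the gene, the value in shMETTL1 cells was 1.24 (SE 0.83). The value in shscramble cells was 1.19 (SE 0.73) without shscramble input replicate 2 and 1.15 (SE 0.81) without shscramble AlkAniline-Seq replicate 1. An unadjusted p under 0.05 was found for 8.27% of all gene IDs in shMETTL1 cells (3.53% with a higher value in AlkAniline-Seq), and among the 10 genes for CPT2 alone.

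ECHS1, AMACR and CPT1A were lower in AlkAniline-Seq than in the input of shscramble cells by point estimate. ECHS1 had a log2 fold change of −1.29 there (SE 0.48, edgeR unadjusted p = 0.013, adjusted p = 0.25), and −0.52 in shMETTL1 cells (SE 0.47). AMACR had −1.35 in shscramble cells (SE 0.54, edgeR unadjusted p = 0.021, adjusted p = 0.29), and −0.21 in shMETTL1 cells (SE 0.53). CPT1A had −1.20 in shscramble cells (SE 0.53, edgeR unadjusted p = 0.033, adjusted p = 0.33), and 0.53 in shMETTL1 cells (SE 0.52). These were the only members with an unadjusted p under 0.05 in shscramble cells, where 13.2% of all gene IDs had one and 8.86% had one with a lower value in AlkAniline-Seq. Culture by culture, shscramble replicate 2 was the lowest for each of these genes, at −2.51 for ECHS1, −2.22 for AMACR and −2.13 for CPT1A. Without the input of that culture the fitted values in shscramble cells were −0.71 (SE 0.42) for ECHS1, −0.57 (SE 0.48) for AMACR and −0.69 (SE 0.48) for CPT1A. With library size alone they were −0.75, −0.75 and −0.68. ACADM was lower in AlkAniline-Seq than in the input of every shMETTL1 culture, at −0.79, −1.63 and −1.10, while the shscramble cultures ranged from −3.37 to 1.09. This pattern too was not counted over all gene IDs.

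The difference between the conditions in AlkAniline-Seq over input belongs to the contrast that led to the choice of the genes and is given without a test. It lay above 0 for 7 of the 10 genes (6 when scaled by library size alone), with a median of 0.80, against 0.24 over all 12877 gene IDs, of which 1 (0.00777%) was called. With library size alone this median was 0.17, against −0.28 over all gene IDs. The values ran from −1.24 for DECR1 (SE 2.39) to 1.73 for CPT1A (SE 0.74). DECR1 was at 1.22 (SE 2.62) without shscramble AlkAniline-Seq replicate 1, and CPT1A was at 1.21 (SE 0.65) without shscramble input replicate 2 and 1.05 (SE 0.70) with library size alone. For ECI1 the difference was 0.83 (SE 0.55), 0.55 (SE 0.47) without shscramble input replicate 2 and 0.23 (SE 0.49) with library size alone. This gene had log2 AlkAniline-Seq over input of 0.50, 0.36 and 1.04 in shMETTL1 cultures, against 0.22, −0.54 and −0.18 in shscramble cultures. After TMM scaling, every shMETTL1 culture lay above all shscramble cultures for ECI1, HADHB, CPT1A and CPT2, a separation found for 5.95% of gene IDs. For HADHB and CPT1A the shMETTL1 cultures were also above 0 and the shscramble cultures below 0, as in 1.4% of gene IDs. With library size alone, the conditions overlapped for ECI1, HADHB and CPT2, while CPT1A stayed separated. The share of all gene IDs separated under that scaling was not counted. The sign pattern was present with library size alone in 75 of 12877 gene IDs and in 0 of the 10. Without shscramble input replicate 2 the median of the 10 was 0.30, against 0.13 over all gene IDs. In AlkAniline-Seq reads alone, 5 of the 10 genes lay above 0 and 5 below, with fitted log2 differences between −1.77 for DECR1 (SE 1.76) and 0.73 for HADHB. DECR1 was at 0.76 (SE 1.99) without shscramble AlkAniline-Seq replicate 1. Of all 11097 gene IDs, 1 (0.00901%) was called.

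At single positions, the reads of the 10 genes were mostly found in few libraries. Of their 648 positions with a read in AlkAniline-Seq, 336 (51.9%) were read in 1 library only, against 62.9% of all such positions in the series. All 6 libraries had a read at 17 of the 648, and 9 of these belonged to ACADVL. Of the 17, 14 were also read in all 6 input libraries. A read in AlkAniline-Seq but in no input library was found at 224 positions (34.6%), against 49.1% of all positions read in AlkAniline-Seq. By gene, this share was lowest in ACADVL, at 23.7%, and highest in DECR1, at 72.7% of only 11 positions.

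The leading position of ECI1 was read in every AlkAniline-Seq library, with 24, 113 and 95 reads in shMETTL1 cells, against 33, 178 and 35 in shscramble cells. In the input the same position had 30, 11 and 76 reads in shMETTL1 cells, against 21, 1 and 18 in shscramble cells. The ranges overlapped in both assays. The position ranked 3 behaved otherwise, with 188, 0 and 0 reads in shMETTL1 AlkAniline-Seq libraries, against 54, 9 and 0 in shscramble libraries.

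Positions with 5 or more reads in each library of one condition and at most 1 in each of the other were then listed, again as a description. Such positions were lower in shMETTL1 cells at 4 of the 1238 member positions and higher at none. Over all positions, 884 (0.105%) were lower and 200 (0.0237%) higher by this definition. The AMACR position ranked 7 had 0 reads in every shMETTL1 library, against 12, 22 and 60 in shscramble libraries. The HADHB position ranked 17 had 0 in every shMETTL1 library, against 5, 6 and 13. The CPT1A position ranked 6 had 0, 1 and 0 in shMETTL1 libraries, against 12, 83 and 14. The fourth was the ECI1 position ranked 9.

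These 4 positions differed in what else was read there. The AMACR position had no read in any of the 6 input libraries. The ECI1 position had 18, 75 and 1 reads in shMETTL1 input, against 0, 2 and 41 in shscramble input. The HADHB position had 4, 25 and 0 reads in shMETTL1 input and none in shscramble input, and the CPT1A position had 34, 1 and 0 in shMETTL1 input, against 2, 0 and 1 in shscramble input. At 3 of the 4, at least 1 shMETTL1 input library had a read.

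The coverage behind the zeros also varied. At the AMACR position 64, 216 and 16 reads passed over in shMETTL1 AlkAniline-Seq libraries, against 26, 88 and 63 in shscramble libraries. At the ECI1 position the coverage was 96, 1 and 68 in shMETTL1 libraries, against 76, 64 and 83 in shscramble libraries. At the HADHB position it was 109, 0 and 7 in shMETTL1 libraries, against 8, 7 and 15 in shscramble libraries. In shMETTL1 replicate 2 the ECI1 and HADHB positions had a coverage of 1 and 0, at which a cleavage was not detectable. At the CPT1A position the coverage was 145, 268 and 57 in shMETTL1 libraries, against 163, 382 and 224 in shscramble libraries.

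The count of such positions depended on which shscramble libraries entered. Without shscramble AlkAniline-Seq replicate 1 it was 4 again. Without replicate 2 it was 29 and without replicate 3 it was 26, while the count over all positions was 8934 (1.06%) without replicate 2 and 11618 (1.38%) without replicate 3. Positions read deeply in shscramble replicate 2 or 3 were all read in replicate 1 as well, as stated above, and the part of this sharing in the count of 4 was not tested. Without shMETTL1 AlkAniline-Seq replicate 1, 7 were lower and 3 higher, against 1426 lower and 875 higher over all positions.

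**Figure D4:**
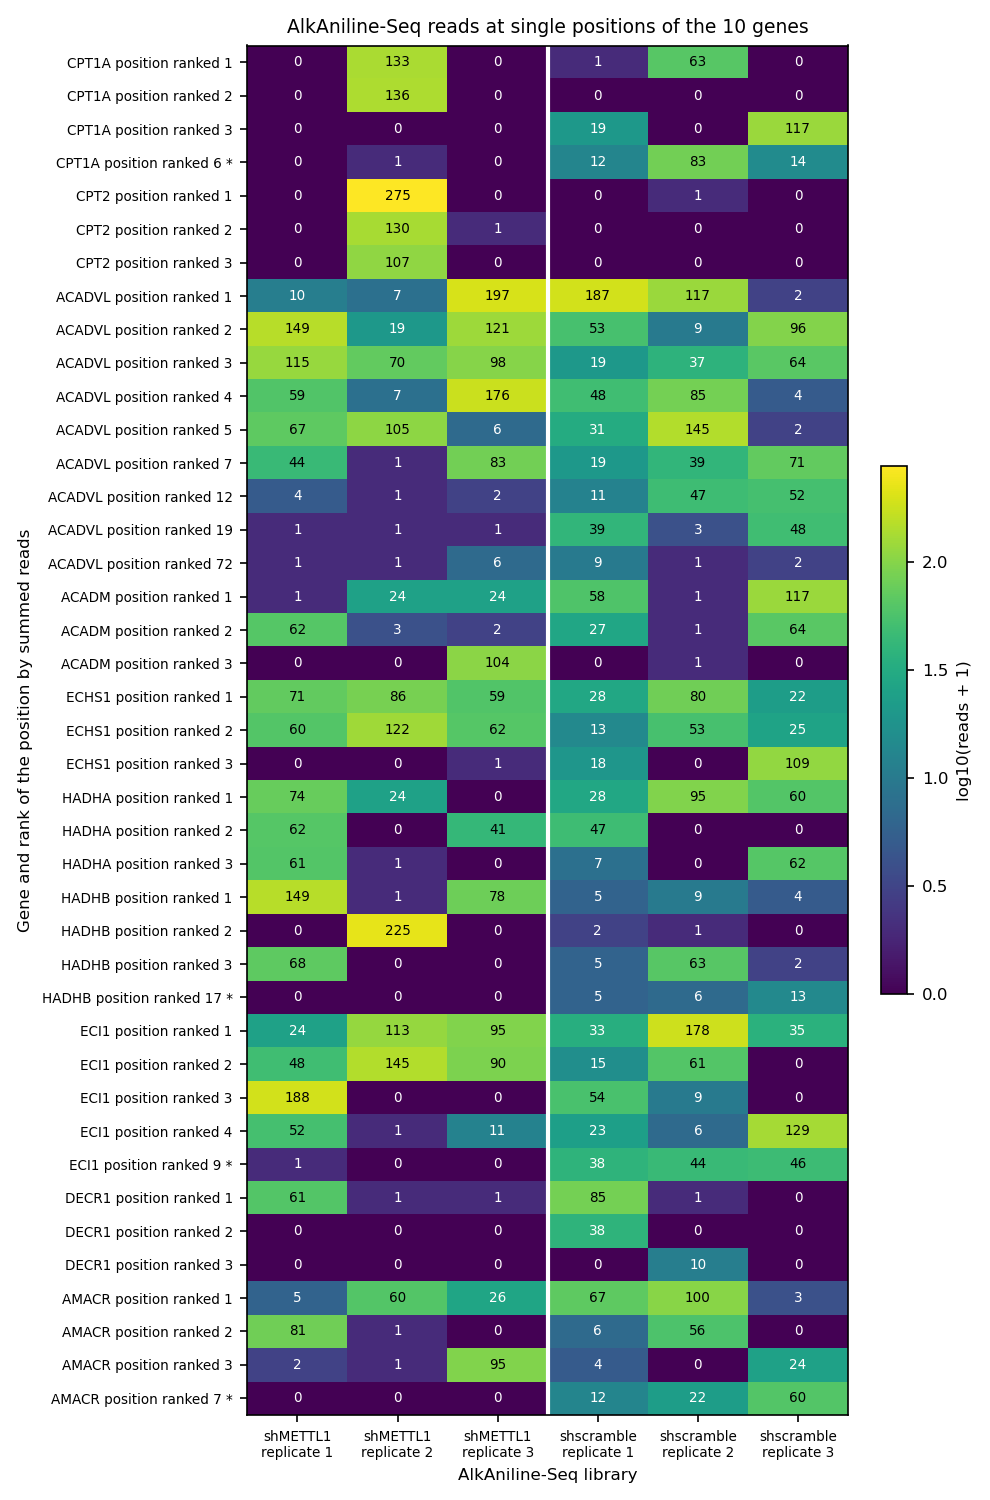
AlkAniline-Seq reads at the named positions of the 10 genes (rows, ranked within a gene by summed reads) in the 3 shMETTL1 libraries (left) and the 3 shscramble libraries (right), with the read number in each cell and colour on a log10(reads + 1) scale. Asterisks mark the 4 positions with 5 or more reads in every shscramble library and at most 1 in every shMETTL1 library; the CPT2 position ranked 1 shows a pile of 275 reads in a single library.

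The positions read in all 6 AlkAniline-Seq libraries showed the spread that these data have where no zero is involved. The ACADVL position ranked 2 had 149, 19 and 121 reads in shMETTL1 libraries, against 53, 9 and 96 in shscramble libraries. The ACADVL position ranked 3 had 115, 70 and 98 reads in shMETTL1 libraries, against 19, 37 and 64 in shscramble libraries. The ACADVL position ranked 19 had 1 read in each shMETTL1 library, against 39, 3 and 48 in shscramble libraries. These read numbers are not scaled for library size, and no direction is read from them.

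The last measure was the share of coverage, the reads at a gene's positions as a percent of the reads that pass over them. Summed over positions, its median over the 10 genes was 7.97% in shMETTL1 and 8.48% in shscramble AlkAniline-Seq libraries, and 9.17% in shMETTL1 and 8.80% in shscramble input. By the mean of replicates, ACADVL was lowest in every group. It had 1.40% in shMETTL1 and 1.69% in shscramble AlkAniline-Seq libraries, and 0.960% in shMETTL1 and 0.777% in shscramble input. In single libraries the sparsely read DECR1 was lower in shMETTL1 AlkAniline-Seq replicate 3 (1.08% against 1.69%). The same held in shscramble input replicate 2 (0% against 0.692%). Among gene IDs with 100 or more reads in a library, at most 0.598% had a lower share than ACADVL in any of the 12 libraries. At its most read position 5609, 5704 and 6141 reads passed over in shMETTL1 AlkAniline-Seq libraries, against 4645, 5640 and 4461 in shscramble libraries, and of these 10, 7 and 197 in shMETTL1 libraries and 187, 117 and 2 in shscramble libraries started there. ECI1 had a lower share than its library's typical gene throughout, with 18.5% to 49.7% of gene IDs below it. So did HADHA (3.72% to 37.4%), CPT1A (10.6% to 49.4%) and ECHS1 (14.1% to 42.6%), and HADHB in 11 libraries (9.26% to 44.7%). AMACR, ACADM, CPT2 and DECR1 reached 56.1%, 58.0%, 66.2% and 90.2% in their highest library.

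In the RefSeq annotation of GRCh38.p14, which is not the build of the deposited values, 8 of the 10 genes overlap another annotated gene. ECI1 overlaps ECI1-AS1, AMACR overlaps C1QTNF3-AMACR, and ACADVL overlaps DLG4 and MIR324. HADHA overlaps GAREM2, CPT2 overlaps CZIB and ECHS1 overlaps MIR3944, whereas DECR1 and HADHB overlap none. How reads were assigned where genes overlap is not given in the sources used here, so the reads of those 8 genes may include reads of their neighbours.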

How the data were processed

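Internal m7G was profiled by AlkAniline-Seq in LNCaP-AI cells. Each of the 6 AlkAniline-Seq libraries was deposited with the input of the same condition and replicate number. Per position of a gene, the authors deposited the counts of reads found there and a coverage signal, the number of reads over it, neither of them normalized. Columns with a ratio of the deposited counts to coverage and a fold over input were not used. According to the submitters' processing notes the tools included Bowtie2 2.2.4, cutadapt 1.9.1 and bedtools 2.24, with hg19 as build. Filters and annotation: not given in the sources used here.

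Counts were summed per gene ID. The quasi-likelihood test of edgeR 4.0.16 (R 4.3.3) was run after TMM scaling, with a minimum count of 10, a minimum total of 15 and Benjamini-Hochberg adjustment over all gene IDs at 0.05. Input libraries were fitted alone, and AlkAniline-Seq over input in 1 model of the 12 libraries. The standard error was the log2 fold change over the square root of F. Log2 CPM used a prior count of 2. The scripts were tested on simulated data. For the input comparison, 0 of 49 genes with a simulated 2-fold change were recovered, 8 of 50 with a 4-fold change and 40 of 50 with a 16-fold change. For AlkAniline-Seq over input in shscramble cells, 0 of 50, 6 of 49 and 28 of 50 were recovered at the same fold changes. Alternatives were DESeq2 1.42.0, library size alone, other filters, a replicate block, the highest position per gene and leaving out each replicate. Figures were drawn with matplotlib 3.10.9 in Python 3.11.15.

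The members and lists were chosen with earlier results of these data known. All 10 members were named, with the 3 positions of each that had most AlkAniline-Seq reads, positions read in all 6 AlkAniline-Seq libraries, condition-specific positions and the 2 gene IDs most like ECI1. The RefSeq gene table (59792 genes) held 0 Ensembl IDs. Member symbols therefore came from the list itself, and other pathway genes, METTL1, WDR4 and cell type markers were not analysed here. Positions carry no coordinate and were matched by row order. The replicate number joins an AlkAniline-Seq library to its input by label, and deviations from group means were compared between same-numbered libraries.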

Additional observations from a re-analysis of the deposited data

Results flagged for a closer look

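In 2 of the 10 genes, log2 AlkAniline-Seq over input was above 0 in every shMETTL1 culture and below 0 in every shscramble culture, a pattern found in 180 of 12877 gene IDs (1.4%), while the opposite was found in 254. For HADHB the values were 0.011, 0.51 and 0.26 in shMETTL1 cultures, against −0.94, −0.73 and −0.070 in shscramble cultures, with a fitted difference of 0.98. For CPT1A they were 0.14, 1.36 and 0.27 in shMETTL1 cultures, against −0.57, −2.13 and −0.55 in shscramble cultures, with a fitted difference of 1.73. No test of the difference is given for these genes, because the contrast led to their choice. The pattern depended on the scaling. With library size alone, a setting added for this pattern after seeing the data, it was present in 75 gene IDs and in 0 of the 10, and the fitted differences were 0.35 for HADHB and 1.05 for CPT1A. In shscramble input replicate 2, a single position held 93.0% of the HADHB reads and 60.2% of the CPT1A reads.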

How the results depend on the processing

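In the input comparison and in AlkAniline-Seq over input of each condition, no member passed an adjusted p of 0.05 under any alternative run. DECR1 did not pass the minimum count of 50 in the input. Counts of gene IDs called moved as follows. For the input comparison (0), DESeq2 called 35, no filter 95, the replicate block 2, and leaving out 1 library 0. For AlkAniline-Seq over input in shMETTL1 cells (27), DESeq2 called 112, library size alone 57, no filter 104, a minimum count of 50 called 41, the replicate block 69, the highest position per gene 159, and leaving out 1 library 4 to 91. In shscramble cells (82), DESeq2 called 569, no filter 266, the highest position per gene 210, the replicate block 119, and leaving out 1 library 26 to 124. For AlkAniline-Seq reads (1), DESeq2 called 178, library size alone 2, no filter 19, a minimum count of 50 called 2, the replicate block 3, the highest position 0, and leaving out 1 library 0 to 3. For the difference in AlkAniline-Seq over input (1), DESeq2 called 95, no filter 31, and leaving out 1 library 0 to 2. The cause of these shifts was not tested.

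Some log2 fold changes of members changed sign. In the input these were DECR1 with the replicate block (1.68), HADHA (0.010), HADHB (0.26) and CPT2 (0.031) with library size alone, ACADM with DESeq2 (−0.33) and the highest position (−0.37), and ECHS1 with the highest position (0.11). In AlkAniline-Seq over input of shMETTL1 cells they were ECI1 with the highest position (−0.024) and ACADVL with library size alone (−0.069), no filter (−0.020), a minimum count of 50 (−0.020) and the replicate block (−0.074). In shscramble cells they were ECI1 (0.24) and ACADM (0.085) with library size alone, and HADHA (−0.94) and CPT2 (−0.019) with the highest position. Library size alone moved the median of all gene IDs to 0.22 in the input, 0.30 in AlkAniline-Seq over input of shscramble cells and −0.28 in its difference.

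In AlkAniline-Seq reads of shMETTL1 over shscramble cells, given without a test, values beyond 0.1 that changed sign were DECR1 without shscramble replicate 1 (0.76), AMACR without shMETTL1 replicate 1 (−0.13) and ECHS1 with the highest position (−0.31). In the difference in AlkAniline-Seq over input they were DECR1 without shscramble AlkAniline-Seq replicate 1 (1.22), HADHA (0.66) and ECHS1 (−0.28) with the highest position, and ACADM without shscramble AlkAniline-Seq replicate 3 (0.12).

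Leaving out 1 library turned the sign within these ranges. In the input they were −1.01 to 2.77 for DECR1, −0.45 to 0.13 for HADHB, −0.30 to 0.65 for ACADM, −0.76 to 0.068 for CPT2 and −0.73 to 0.11 for ECHS1. In AlkAniline-Seq over input of shMETTL1 cells they were −4.57 to 0.15 for DECR1, −0.65 to 0.088 for HADHA, −0.12 to 0.54 for HADHB and −0.17 to 0.36 for ACADVL. In shscramble cells they were −0.46 to 0.050 for ECI1, −1.66 to 4.03 for DECR1 and −1.37 to 0.20 for ACADM. Averaged over positions instead of summed, the median share of coverage was 12.1% in shMETTL1 and 13.8% in shscramble AlkAniline-Seq libraries, and 16.7% in shMETTL1 and 14.9% in shscramble input. Without 1 library the summed share was 7.32% to 8.31% in shMETTL1 and 8.34% to 8.80% in shscramble AlkAniline-Seq libraries, and 8.23% to 9.98% in shMETTL1 and 7.71% to 9.66% in shscramble input. Condition-specific positions, left out in turn after seeing the data, were 4 to 29 lower and 0 to 3 higher in shMETTL1 cells. Deviations of same-numbered libraries from their group means correlated at −0.020 to 0.049, so a shared number is not evidence of pairing between the conditions. Within a condition, AlkAniline-Seq and input of the same number correlated at 0.0013 to 0.018 in shMETTL1 cells and −0.0048 to 0.033 in shscramble cells. The values given culture by culture therefore rest on the labels alone for that pairing.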
